A study of Mus musculus with 8 samples.

Results

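The 8 miRNAs described here are mmu-miR-320-3p, mmu-miR-484, mmu-miR-877-5p, mmu-miR-877-3p, mmu-miR-1981-5p, mmu-miR-702-3p, mmu-miR-1839-5p and mmu-miR-1839-3p, a list chosen by name because these miRNAs do not follow the canonical route of biogenesis. They are 8 of the 1978 mouse mature miRNAs counted in this small RNA sequencing experiment, of which 800 had reads in at least 1 library. All the libraries came from 3A cells, a nontumorigenic line of murine hepatocytes grown on collagen with EGF and IGF II, or from the extracellular vesicles (EVs) of medium that the same cells had conditioned for 72 h with EV-depleted serum. The control groups, cell shCTR and EV shCTR, came from cells infected with a retrovirus that carries a control shRNA, and the groups cell shPCBP2 and EV shPCBP2 came from cells with a stable shRNA against PCBP2, a poly(C)-binding protein studied as a factor that retains miRNAs in the cell. All cells were selected with 2 µg/mL puromycin, and each of the 4 groups held 2 libraries. PCBP2 mRNA is not measured by small RNA libraries, so the knockdown was not checked here. The paper assessed the PCBP2 silencing separately, by expression level and by western blot. The libraries are replicates of a single cell line in culture, and p-values measure the spread between such libraries.

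Most animal miRNAs are cut from a long primary transcript by the nuclear enzyme Drosha and then from the hairpin by Dicer. The members of this list reach Dicer by other routes. The hairpins of miR-320 and miR-484 begin at the start of their own short capped transcript and need no cut by Drosha. The miRNAs miR-877, miR-1981 and miR-702 are mirtrons, short introns that the spliceosome releases as a ready-made hairpin, and miR-1839 comes from a small nucleolar-type RNA. In the liver these miRNAs are minor species beside abundant canonical ones such as miR-122, the best known miRNA of hepatocytes.

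Mature sequences were taken from RefSeq (build GRCm38.p6) for 6 of the 8 members and are shown so that the seed, the stretch that pairs with target mRNAs, and the base composition of the members can be compared. Capitals mark the seed, bases 2 to 8 from the 5′ end.
mmu-miR-484: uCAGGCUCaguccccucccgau
mmu-miR-877-5p: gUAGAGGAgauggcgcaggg
mmu-miR-877-3p: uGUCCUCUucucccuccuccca
mmu-miR-1981-5p: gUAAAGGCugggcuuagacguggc
mmu-miR-702-3p: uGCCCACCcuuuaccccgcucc
mmu-miR-1839-5p: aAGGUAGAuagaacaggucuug

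No member with a sequence shared its seed with another of the 1679 mouse miRNAs of the count table that had one. The 6 sequences were searched on the miRNA strand for AUUA and AUUG, the core forms of a cell-retention motif studied in these cells. They were also searched for GGCU, a short form of the export motif bound by SYNCRIP, and for CCC, since PCBP2 binds C-rich RNA. The study also scanned an extended retention motif and a longer, variable export motif, which were not searched here. A sequence without the exact matches may still hold those motifs. AUUA and AUUG were found in none of the 6; over the 1679 sequences they were found in 2.5% and 6.8%. GGCU was found in miR-484, starting at base 4, and at 2 places in miR-1981-5p, starting at bases 6 and 11, and in 13.3% of the 1679. CCC was found in miR-484, miR-877-3p and miR-702-3p, and in 23.3% of the 1679. The 3p arms of miR-877 and miR-702 were rich in C and U: 90.9% of the bases of miR-877-3p and 81.8% of those of miR-702-3p, against a median of 50.0% over the 1679. The 5p arm of the same miR-877 hairpin had 20.0%.

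The 3 mirtron hairpins are shown so that each can be compared with its intron, with the mature arms in capitals.
Mir877: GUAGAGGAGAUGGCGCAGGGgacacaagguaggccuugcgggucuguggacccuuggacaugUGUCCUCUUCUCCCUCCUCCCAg
Mir1981: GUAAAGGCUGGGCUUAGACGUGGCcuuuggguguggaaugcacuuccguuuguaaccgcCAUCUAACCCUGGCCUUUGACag
Mir702: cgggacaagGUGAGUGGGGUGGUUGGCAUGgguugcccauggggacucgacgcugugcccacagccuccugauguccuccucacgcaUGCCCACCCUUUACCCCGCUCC

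By the GENCODE annotation of GRCm38, the Mir877 hairpin at chr17:35960730-35960814 (minus strand) was the whole of an 85-base intron of Abcf1, which encodes a protein of the ABC family that acts in translation. miR-877-5p began at the first base of the intron, and 1 base followed miR-877-3p. The Mir1981 hairpin at chr1:184822407-184822488 (minus strand) was likewise the whole of an 82-base intron of Marc2, a gene for a mitochondrial amidoxime-reducing enzyme. miR-1981-5p began at its first base, and 2 bases followed miR-1981-3p. In Mir702, at chr5:136991433-136991541 (plus strand), the 5p arm began at the first base of a 102-base intron of Plod3. This gene encodes a lysyl hydroxylase of collagen. miR-702-3p ended 2 bases before the end of that intron. The annotated Mir702 hairpin was not the whole intron: the lowercase bases before its 5p arm lay in the exon upstream. Both miR-877-5p and miR-1981-5p thus open with GU, the first bases of most introns, as did 3.6% of the 1679 miRNAs.

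The other hairpins lay elsewhere. Mir320, at chr14:70443510-70443591 (plus strand), lay outside the annotated transcripts of Polr3d, 63 bases upstream of the nearest transcript start of this gene, which encodes a subunit of RNA polymerase III on the opposite strand. Mir484, at chr16:14159626-14159692 (plus strand), lay 359 bases upstream of the start of a Marf1 transcript on the opposite strand and partly within an exon of another. Mir1839, at chr7:81529916-81529988 (plus strand), overlapped an annotated scaRNA, a small RNA of Cajal bodies, whose transcript started 61 bases upstream of the hairpin. This scaRNA lies within the long noncoding RNA gene 2900076A07Rik.

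Mouse miRNAs received 8745848 to 12732173 reads in the cell libraries and 503070 to 687592 in the EV libraries; the nematode spike-in cel-miR-39-3p received 15734400 to 37548200 reads and served as the reference for levels. Levels are given as spike-in RPM, the reads of an miRNA per 1000000 spike-in reads, and shares as mouse RPM, its reads per 1000000 mouse miRNA reads. The 8 members held 0.143 to 0.163% of the mouse miRNA reads in cells and 0.361 to 0.729% in EVs. Of these member reads, miR-320-3p took 38.7 to 45.1% in cells and 56.4 to 76.0% in EVs. In bulk EV libraries, fewer vesicles and less of an miRNA per vesicle cannot be told apart. The paper separately counted EVs per cell and reports no effect of the PCBP2 knockdown on EV production.

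The identity of the 2 compartments was checked with miRNAs of liver and blood cells. The hepatocyte list of miR-122-5p, miR-192-5p and miR-194-5p summed to 24053 to 28565 mouse RPM in cells and 8662 to 11830 in EVs, where miR-192-5p was at 0 in both EV shPCBP2 libraries. miR-122-5p was low in the cells, with 35.7 to 41.5 mouse RPM, and had 1436 to 3721 in EVs. In cells its share was smaller than those of miR-320-3p, miR-484, miR-1981-5p and miR-1839-5p. It overlapped with that of miR-877-5p and exceeded those of miR-877-3p, miR-702-3p and miR-1839-3p. The erythroid list summed to 6.73 to 15.2 in cells, with miR-451a and miR-144-3p at 0, and to 51471 to 61379 in EVs, with all 3 of its miRNAs present. The leukocyte list summed to at most 0.475 in cells and to 7130 to 8915 in EVs, the endothelial list to 174 to 228 and 4891 to 8805, and the mesenchymal list to 13.0 to 28.0 and 3317 to 6697. These markers moved with the compartment in the comparison of EVs with cells. Between the EV groups the hepatocyte, leukocyte, endothelial and mesenchymal sums overlapped, while the erythroid sum was 51471 to 55093 in EV shCTR and 61264 to 61379 in EV shPCBP2. The part of these markers in the EV levels of the 8 members was not tested.

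**Figure D1:**
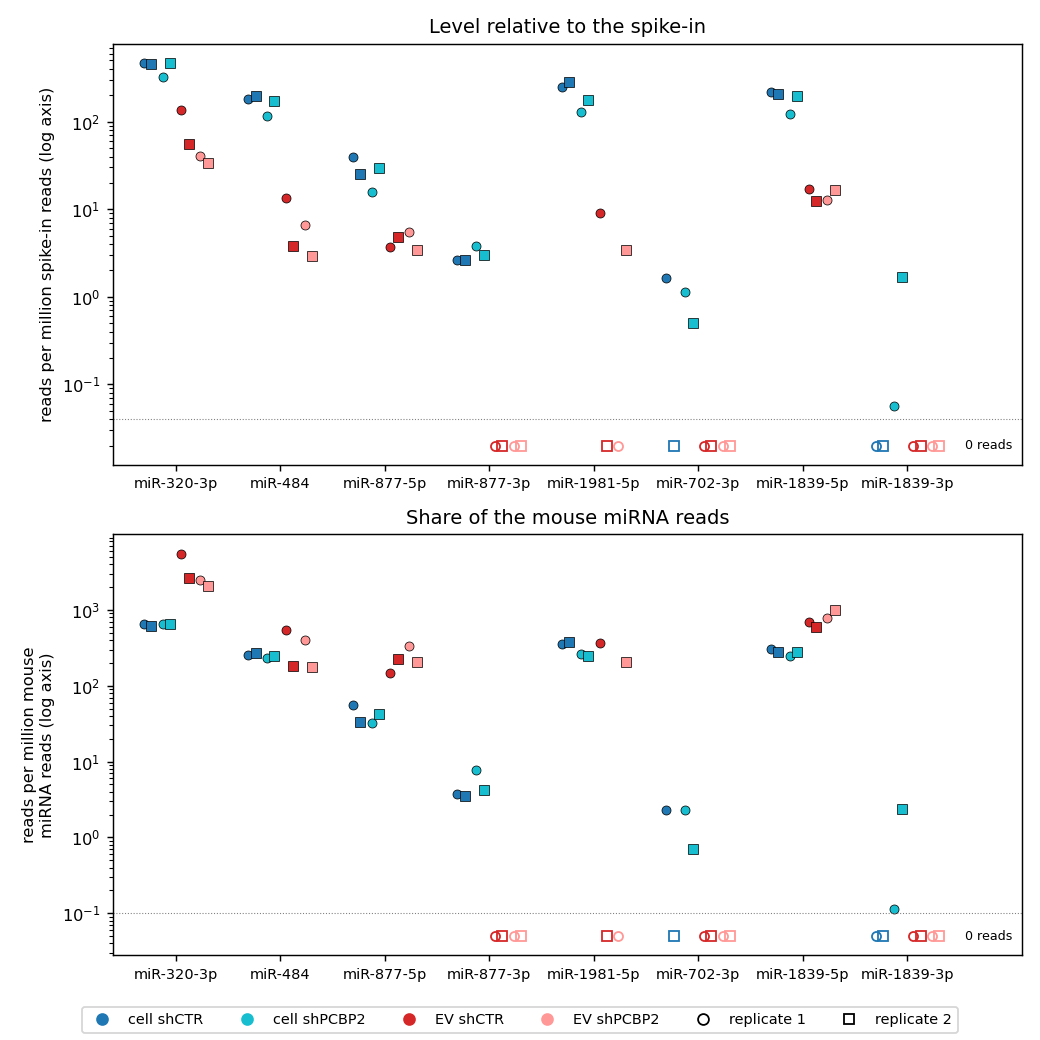
Levels of the 8 miRNAs in each library, on log axes, as spike-in RPM (upper panel) and mouse RPM (lower panel). Each point is a library, colour gives the group, circles and squares are replicates 1 and 2, and open symbols under the dotted line have 0 reads; miR-320-3p is lower in EVs (34.2 to 137) than in cells (320 to 467) relative to the spike-in and higher as a share of mouse miRNA reads.

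miR-320-3p, a start-site hairpin product that has been widely studied as a circulating miRNA, was the most frequently read member in every library. The shCTR cells gave 8317 and 7141 reads and the shPCBP2 cells 5649 and 8295, while shCTR EVs gave 3813 and 1449 and shPCBP2 EVs 1521 and 1039. Relative to the spike-in, the cells had 467 and 454 spike-in RPM with shCTR and 320 and 466 with shPCBP2. The EVs had 137 and 55.7 spike-in RPM with shCTR and 40.5 and 34.2 with shPCBP2. The cell groups overlapped, both EV groups were below both cell groups, and the EV groups did not overlap with each other. EV levels below both cell libraries were found for 83.9% of the 180 miRNAs tested in shCTR and for 80.0% in shPCBP2. EV groups without overlap, with shPCBP2 lower, were found for 42.2%. The EV shCTR replicates differed 2.47-fold, more than the median of 1.34-fold over the 180 miRNAs tested. As a share of the mouse miRNA reads the order of the compartments turned: 610 to 657 mouse RPM in cells and 2065 to 5545 in EVs. By its mean level, miR-320-3p ranked 87 of 180 in cell shCTR and 47 in EV shCTR.

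miR-484, the other start-site product, gave 3278 and 3119 reads in shCTR cells and 2043 and 3093 in shPCBP2 cells, and 374 and 100 reads in shCTR EVs and 251 and 90 in shPCBP2 EVs. Its level in cells was 191 ± 10.1 spike-in RPM with shCTR and 145 ± 40.9 with shPCBP2 (SD, n = 2). In EVs it was 8.66 ± 6.81 spike-in RPM with shCTR and 4.82 ± 2.63 with shPCBP2 (SD, n = 2). Replicate 1 was the higher library in both EV groups, by 3.51-fold in shCTR and 2.26-fold in shPCBP2, and the EV groups overlapped. As a share of mouse miRNA reads, the cell range of 234 to 267 mouse RPM lay within the EV range of 179 to 544.

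Among the mirtrons, miR-877-5p gave 709 and 395 reads in shCTR cells and 281 and 533 in shPCBP2 cells, and 102 and 126 reads in shCTR EVs and 207 and 103 in shPCBP2 EVs. This corresponded to 32.4 ± 10.4 and 22.9 ± 9.89 spike-in RPM in cells and to 4.26 ± 0.825 and 4.45 ± 1.50 in EVs, with shCTR first (SD, n = 2), and with overlap between the shRNAs in both compartments and none between compartments. Its share of the mouse miRNA reads was 32.1 to 55.7 mouse RPM in cells and 148 to 335 in EVs.

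miR-1981-5p had 4484 and 4458 reads in cell shCTR and 2283 and 3141 in cell shPCBP2. In EVs it was detected in a single library of each group, with 253 and 0 reads in shCTR EVs and 0 and 104 in shPCBP2 EVs. The cell levels were 252 and 283 spike-in RPM in shCTR and 129 and 176 in shPCBP2, so the cell groups did not overlap. The same held, with shPCBP2 lower, for 66.7% of the 180 miRNAs tested.

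miR-1839-5p, the small nucleolar-type product, gave 3910 and 3292 reads in shCTR cells, 2180 and 3472 in shPCBP2 cells, 473 and 326 in shCTR EVs, and 484 and 507 in shPCBP2 EVs. Its level was 214 ± 7.19 and 159 ± 50.4 spike-in RPM in the cell groups, and 14.8 ± 3.19 and 14.8 ± 2.67 in the EV groups, in the order shCTR and shPCBP2 (SD, n = 2). The EV groups overlapped, and their replicates were as close as those of the median miRNA, differing 1.36-fold in shCTR and 1.29-fold in shPCBP2. Its share was 249 to 307 mouse RPM in cells and 589 to 1008 in EVs.

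The remaining 3 members were read in cells only. miR-877-3p had 47 and 41 reads in cell shCTR and 67 and 53 in cell shPCBP2. miR-702-3p had 29 and 0 reads in cell shCTR and 20 and 9 in cell shPCBP2. miR-1839-3p had 0 and 0 reads in cell shCTR and 1 and 30 in cell shPCBP2. All 4 EV libraries had 0 reads of each. The depth sets a limit here. At its share of the cell reads, miR-702-3p would have had 0.630 to 0.928 reads in an EV library, and miR-1839-3p at most 0.770. For these members a smaller or equal share of the EV reads was not detectable at this depth. At its cell share, miR-877-3p would have had 1.99 to 3.67 reads in each of the 4 EV libraries, and none were read. No lower EV share of miR-877-3p is drawn from this, given the scarcity of low EV counts described next. Low counts were scarce in the EV columns as a whole: 28 of the 761 values above 0 were between 1 and 40, against 921 of 2179 in cells, and the smallest EV count of a member above 0 was 90.

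A test was made of every miRNA that had at least 1 read in 2 or more libraries of each compartment, the filter the study's methods describe. This left 180 miRNAs and 5 members, miR-320-3p, miR-484, miR-877-5p, miR-1981-5p and miR-1839-5p. A model over the 8 libraries was fitted with edgeR, and its p-values were adjusted over the 180 by Benjamini and Hochberg's method.

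The comparison of EVs with cells sets the level of each miRNA in the vesicle preparation against its level in the cells. The source of the EV reads was not tested, so the percentages below are not a share released by the cells. These percentages also depend on the amounts of cell and EV material that received the spike-in. The paper does not state those amounts for the sequenced samples. Relative to the spike-in, 4 of the 5 members tested were called lower in EVs in shCTR at an adjusted p under 0.05, beside 59.4% of all 180 miRNAs. The same 4 were called lower in shPCBP2, beside 60.0%. This direction depended on the scaling, as given after these values. The EV level of miR-320-3p was 21.0% of the cell level in shCTR and 9.50% in shPCBP2. For miR-877-5p it was 13.1% and 19.4%, for miR-1839-5p 6.90% and 9.29%, for miR-484 4.53% and 3.33%, and for miR-1981-5p 1.70% and 1.12%. The shCTR values rest on single EV libraries: without EV shCTR replicate 1 the log2 EV/cell ratio in shCTR went from -2.25 to -3.05 for miR-320-3p and from -4.46 to -5.63 for miR-484, and without EV shCTR replicate 2 it went to -1.74 and -3.83. In shPCBP2 that of miR-484 went from -4.91 to -5.61 without EV shPCBP2 replicate 1. All 5 members had EV levels below both cell libraries in each shRNA, which 83.9% of the 180 also had in shCTR and 80.0% in shPCBP2.

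On the log2 scale the median EV/cell ratio of the 180 miRNAs was -4.93 in shCTR. miR-320-3p had a log2 ratio of -2.25 (SE 0.55, adjusted p = 0.0107), 2.68 above the median and 42 of 180 from the top. miR-877-5p had -2.93 (SE 0.85, adjusted p = 0.0218), rank 49, and miR-1839-5p -3.86 (SE 0.58, adjusted p = 0.00114), rank 61. The ratio of miR-484 was -4.46 (SE 0.91, adjusted p = 0.00476), rank 79, near the median. miR-1981-5p, with its zero counts, had -5.87 (SE 3.19, adjusted p = 0.141), rank 133, and did not pass the test.

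In shPCBP2 the median ratio was -4.90. miR-877-5p had -2.36 (SE 0.83, adjusted p = 0.0429), rank 46 of 180, and miR-320-3p -3.39 (SE 0.57, adjusted p = 0.00195), rank 56. miR-1839-5p had -3.43 (SE 0.57, adjusted p = 0.00184), rank 57, and miR-484 -4.91 (SE 0.92, adjusted p = 0.00332), rank 92. The ratio of miR-1981-5p was -6.48 (SE 3.28, adjusted p = 0.123), rank 148. The call of miR-1981-5p depended on the tool: DESeq2 called it lower in EVs in shCTR (adjusted p = 0.0402) and in shPCBP2 (adjusted p = 0.0240), and so did limma voom (adjusted p = 0.00646 and 0.00607). In edgeR it was called with a library left out in 1 of 8 fits in shCTR, without EV shCTR replicate 1 (adjusted p = 0.0349), and in 3 of 8 in shPCBP2, without EV shCTR replicate 1, EV shCTR replicate 2 or EV shPCBP2 replicate 2 (adjusted p = 0.0484, 0.0481 and 0.0426).

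Of the 4 members called, miR-877-5p alone lost its call with 1 library left out at a time: its adjusted p ran from 0.0132 to 0.115 in shCTR, above 0.05 without cell shCTR replicate 1, cell shCTR replicate 2 or EV shCTR replicate 1, and from 0.0414 to 0.166 in shPCBP2, where it was above 0.05 without either cell shCTR library, either cell shPCBP2 library or EV shPCBP2 replicate 2. In shPCBP2 its call was also lost with limma voom (adjusted p = 0.104) and in a fit of only the 4 libraries compared (adjusted p = 0.112).

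**Figure D2:**
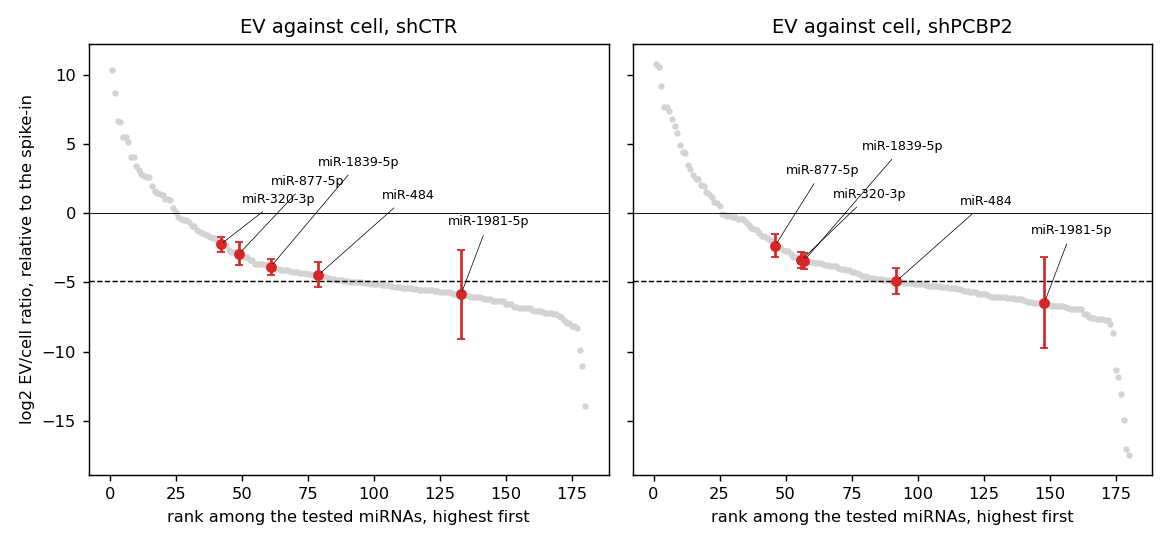
log2 EV/cell ratio relative to the spike-in (y axis) against the rank of that ratio among the 180 tested miRNAs (x axis), in shCTR (left) and shPCBP2 (right). Grey points are all tested miRNAs, red points are the 5 members with their standard errors, the dashed line is the median of all 180 (-4.93 and -4.90), and miR-320-3p, miR-877-5p and miR-1839-5p lie above it in both panels.

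The direction of this comparison rests on the spike-in, and for miR-320-3p, miR-877-5p and miR-1839-5p it turned with each of the 3 scalings to mouse miRNA reads that were tried; for miR-484 it turned with all 3 in shCTR and with the total count in shPCBP2. With the total mouse miRNA count as the library size, the median ratio of the 180 was 0.06 in shCTR and 0.30 in shPCBP2. miR-320-3p then had a log2 ratio of 2.69 in shCTR (SE 0.38, adjusted p = 0.00165), a share 6.46 times higher in EVs, and of 1.80 in shPCBP2 (SE 0.37, adjusted p = 0.00703), a share 3.47 times higher. miR-877-5p had 2.07 (adjusted p = 0.124) and 2.86 (adjusted p = 0.0442), and miR-1839-5p 1.12 (adjusted p = 0.107) and 1.77 (adjusted p = 0.0202), in shCTR and shPCBP2. miR-484 had 0.47 (adjusted p = 0.732) and 0.29 (adjusted p = 0.830), and miR-1981-5p -0.99 (adjusted p = 0.848) and -1.30 (adjusted p = 0.764). Thus 1 of 5 members was called higher in EVs in shCTR, beside 23.9% of the 180, and 3 of 5 in shPCBP2, beside 30.0%. With TMM factors 1 of 5 was called higher in each shRNA, beside 23.3% in both. With median-of-ratios size factors 1 of 5 was called in shCTR, beside 22.2%, and 2 of 5 in shPCBP2, beside 25.0%. miR-320-3p was among the miRNAs called higher in EVs in all of these 6 fits.

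The comparison of shPCBP2 with shCTR in EVs asks whether the vesicles of shPCBP2 cells held other amounts of each miRNA. No member was called by edgeR, beside 7.22% of the 180 miRNAs (13 calls); DESeq2 and limma voom called none of the 5 members either. At an unadjusted p under 0.05, miR-320-3p was the single member counted, beside 17.2% of the 180. Its log2 change was -1.37 (SE 0.53, 95% interval -2.67 to -0.07, adjusted p = 0.257), against a median change of -0.54 over the 180, so it lay 0.83 further down at rank 151 from the top. When libraries were scaled to the total mouse miRNA count, the median change was -0.02 and that of miR-320-3p -0.85 (adjusted p = 0.380). With a library left out at a time, the value relative to the spike-in ran from -1.88 to -0.58, and it was nearest to 0 without EV shCTR replicate 1, the library with 3813 reads. miR-320-3p was also the only 1 of the 5 members whose EV groups did not overlap with shPCBP2 lower, beside 42.2% of the 180.

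The other members spread around the median of this comparison. miR-484 had a log2 change of -0.84 (95% interval -2.77 to 1.09, adjusted p = 0.684), which became 0.33 without EV shCTR replicate 1. miR-877-5p had 0.06 (95% interval -1.85 to 1.98) and miR-1839-5p 0.00 (95% interval -1.27 to 1.27), with adjusted p-values of 0.993 and 1.00. miR-1981-5p, with reads in a single EV library of each group, had -1.41 with an interval of -7.85 to 5.02. The intervals of miR-484, miR-877-5p and miR-1839-5p include changes of more than 2-fold in at least 1 direction, so these data do not show that the levels were equal.

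In cells, edgeR called none of the 180 miRNAs between shPCBP2 and shCTR (0.0%), and none of the 5 members. At an unadjusted p under 0.05, 13.9% of the 180 were counted (25, all lower in shPCBP2) and again no member, while DESeq2 called 18 miRNAs and limma voom 16, with no member among them. The median change was -0.49. miR-320-3p had a log2 change of -0.23 (SE 0.52), miR-484 -0.40 (SE 0.79), miR-1839-5p -0.43 (SE 0.52), miR-877-5p -0.50 (SE 0.79) and miR-1981-5p -0.81 (SE 2.60), each with an adjusted p of 0.938. The cell groups did not overlap, with shPCBP2 lower, for miR-484, miR-1981-5p and miR-1839-5p, 3 of 5 members, beside 66.7% of the 180. In a fit restricted to the 4 cell libraries, miR-1981-5p was called lower in shPCBP2 (log2 change -0.81, adjusted p = 0.0178); there its EV zeros no longer enter the estimate of the spread, and 39 of the miRNAs were called in all.

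How the EV/cell ratio differed between the shRNAs addresses whether the knockdown altered the partition of an miRNA between vesicles and cells. It uses the same libraries as the comparisons above. edgeR called 4 of the 180 miRNAs (2.22%) and no member, and at an unadjusted p under 0.05 it counted 9.44% of the 180 and no member. DESeq2 and limma voom called no member either. miR-320-3p had a log2 change of the ratio of -1.14 (SE 0.74, 95% interval -2.95 to 0.66, adjusted p = 0.987), at rank 167 of 180 from the top, against a median of -0.08. With 1 library left out at a time this value ran from -1.65 to -0.35, the latter without EV shCTR replicate 1. miR-484 had -0.44 (SE 1.11) and miR-1981-5p -0.61 (SE 3.65). miR-877-5p had 0.57 (SE 1.11, rank 50) and miR-1839-5p 0.43 (SE 0.73, rank 56). The adjusted p was 0.992 for each of these 4, and none of the 5 intervals excluded 0.

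**Figure D3:**
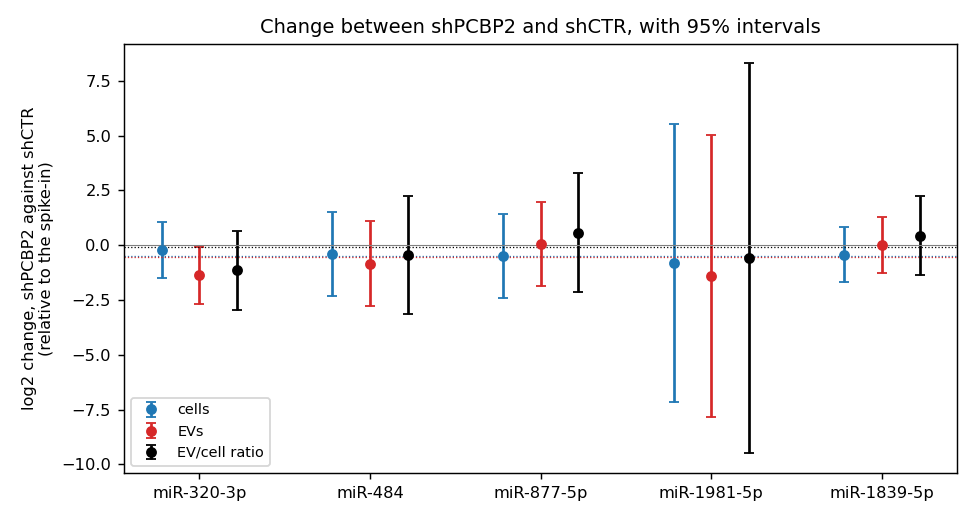
log2 change between shPCBP2 and shCTR (y axis, relative to the spike-in) of the 5 tested members (x axis), in cells (blue), in EVs (red) and in the EV/cell ratio (black), with 95% intervals. Dotted lines are the medians of the 180 tested miRNAs (-0.49, -0.54 and -0.08); the interval of miR-320-3p in EVs (-2.67 to -0.07) is the only 1 of the 15 that does not include 0.

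The miR-877 hairpin gave reads from both arms, so its arm share could be followed without a scaling. The 3p arm took 47 of 756 miR-877 reads in cell shCTR replicate 1, which is 6.22% (exact Clopper-Pearson 95% interval 4.60 to 8.18%), and 41 of 436 in replicate 2, which is 9.40% (6.83 to 12.5%). In cell shPCBP2 it took 67 of 348 reads, 19.3% (15.2 to 23.8%), and 53 of 586, 9.04% (6.85 to 11.7%). Thus replicate 1 of cell shPCBP2 stood above the other 3 libraries, whose intervals overlapped. The mean share was 14.1 ± 7.22% in cell shPCBP2 and 7.81 ± 2.25% in cell shCTR (SD, n = 2). The groups overlapped, as 9.04% in cell shPCBP2 replicate 2 lay below 9.40% in cell shCTR replicate 2. An exact permutation test of 2 against 2 libraries gave a two-sided p of 0.667. Such a test cannot give a p below 0.333, so it could not decide whether the shares differed.

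In EVs the 3p arm had 0 of 102 and 0 of 126 miR-877 reads in shCTR, which allows shares of up to 2.94% and 2.38%, and 0 of 207 and 0 of 103 in shPCBP2, which allows up to 1.45% and 2.91%. Intervals and limits cover counting error only, since no molecular identifiers were counted. Counts between 1 and 40 were scarce in the EV columns, as given above, so these limits may be too low, and no difference of the arm share between EVs and cells is drawn from them.

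**Figure D4:**
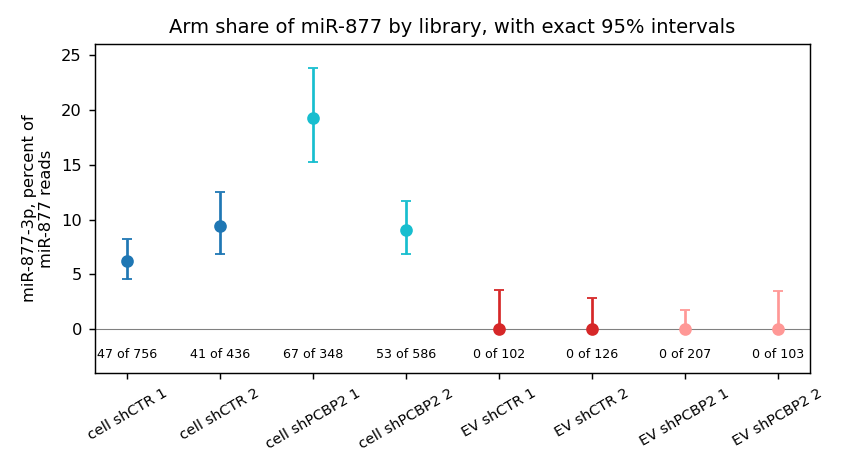
Share of miR-877 reads that came from the 3p arm (y axis, percent) in each of the 8 libraries (x axis), with exact 95% intervals and the read counts beneath each point. The 4 cell libraries lie between 6.22 and 19.3%, and the 4 EV libraries are at 0 of 102 to 207 reads.

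For miR-1839 the 5p arm took nearly all reads. The 3p arm had 0 of 3910 and 0 of 3292 reads in cell shCTR, with exact upper limits of 0.0943% and 0.112%. It had 1 of 2181 reads in cell shPCBP2 replicate 1 (0.0459%) and 30 of 3502 in replicate 2 (0.857%). With a floor of 3 reads per library, the mean level of miR-1839-3p relative to the spike-in was at least 4.85-fold higher in cell shPCBP2 than in cell shCTR, but 30 of its 31 reads came from a single library. The 4 EV libraries had 0 of 326 to 507 miR-1839 reads from the 3p arm, with exact upper limits of 0.725 to 1.13%. The EV limits are above 3 of the 4 cell shares, so a difference between compartments was not detectable for this arm.

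A further 13 miRNAs of non-canonical routes were looked up for comparison, namely the opposite arms of miR-320, miR-1981 and miR-702, the mirtrons miR-1224 and miR-3102, the snoRNA-derived miR-664, the tRNA-derived miR-1983 and miR-451a, which Argonaute rather than Dicer cuts. Of these 13, 8 had reads in at least 1 library, and 2 were tested, miR-3102-3p and miR-1983. miR-1983 was called lower in EVs in both shRNAs, with log2 ratios of -6.18 in shCTR (adjusted p = 0.0223) and -8.67 in shPCBP2 (adjusted p = 0.00859), which became -1.23 and -3.50 with the total count, where neither passed the test. Its cell counts were 12080, 11921, 8864 and 11239, and shCTR EVs had 377 and 161 reads and shPCBP2 EVs 1 and 84. miR-3102-3p was not called in any comparison; shCTR EVs had 0 and 92 of its reads and shPCBP2 EVs 388 and 0. Neither was called between shPCBP2 and shCTR in cells, in EVs or in the ratio.

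miR-451a had 0 reads in the 4 cell libraries and 3595 to 4430 in the EV libraries, which places it apart from the members. The mirtron arms miR-1981-3p and miR-702-5p resembled miR-877-3p and miR-702-3p in having low cell counts, 16 to 40 and 7 to 64, and no EV reads. No reads of miR-320-5p were counted in any library.

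For each tested member with at least 10 reads in all 8 libraries, the miRNAs with the most similar pattern were sought among 112 others, by the root mean square of the difference of their centred log2 levels over the 8 libraries. miR-320-3p was nearest to miR-139-5p (0.44), miR-92a-3p (0.46) and miR-125a-5p (0.47), beside a median of 1.43 over the 112. miR-877-5p was nearest to miR-92a-3p (0.30), miR-671-5p (0.42) and miR-139-5p (0.43), so these members shared 2 of their 3 nearest miRNAs. miR-484 was nearest to miR-744-5p (0.34), miR-362-5p (0.37) and miR-652-3p (0.42). miR-1839-5p was nearest to miR-15b-5p (0.31), miR-25-3p (0.32) and miR-151-3p (0.33). miR-1981-5p was not compared because of its EV zeros, and these distances share the libraries and their scaling.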

How the data were processed

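Small RNA from 3A cells and their EVs was measured in 8 libraries of 4 groups. After trimming, the authors mapped forward reads on miRBase 22.1 hairpins (mirPRo 1.1.4, Novoalign) and deposited raw counts per mature miRNA, not normalized; values above 999999 are printed to 6 significant digits. Groups and replicate numbers follow the sample titles, while the sample descriptions number some shPCBP2 replicates differently. The members and lists were chosen with earlier results of these data known. Every miRNA with at least 1 read in 2 or more libraries of each compartment was tested with the quasi-likelihood test of edgeR 4.0.16 in R 4.3.3, with the spike-in count setting the library sizes, a prior count of 0.125 and a 4-group model (common dispersion 0.693, 4 residual and 2.10 prior degrees of freedom); DESeq2 was used in the study and is an alternative here, with limma 3.58.1 (voom) and DESeq2 1.42.0. Standard errors are approximate, being the log2 change over the root of the F statistic. The step was tested on simulated counts. The alternatives tried were other scalings (the total mouse count, TMM, median of ratios), no filter, at least 10 counts in every library, a replicate block, only the 4 libraries compared and each library left out. A floor of 3 counts was used for 0. The named miRNAs are the 8 members, the 13 others of similar routes, the 3 nearest in pattern and the marker lists, and miR-122-5p was described apart after its values were seen. Coordinates are from GRCm38 with GENCODE, and the mature and hairpin sequences from RefSeq; those of miR-320-3p and miR-1839-3p were not used here. Arm shares were computed with Python 3.11.15 and scipy 1.17.1. Reads of near-identical miRNAs cannot be told apart by such counting.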

Additional observations from a re-analysis of the deposited data

How the results depend on the processing

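Over the 5 tested members, 415 values were recomputed under the alternatives, of which 350 kept direction and side of the threshold, 42 changed direction, 14 lost and 9 gained a call; the cause was not tested unless stated. The scaling mattered most for EVs against cells. In shCTR the log2 ratios with TMM factors, median-of-ratios factors and the total count were 2.49, 2.47 and 2.69 for miR-320-3p, 0.28, 0.24 and 0.47 for miR-484, 1.84, 1.86 and 2.07 for miR-877-5p, and 0.90, 0.90 and 1.12 for miR-1839-5p. In shPCBP2 they were 1.17, 1.37 and 1.80 for miR-320-3p, 2.22, 2.42 and 2.86 for miR-877-5p, and 1.16, 1.37 and 1.77 for miR-1839-5p, and miR-484 reached 0.29 with the total. The members called, all higher, were then 1, 1 and 1 in shCTR and 1, 2 and 3 in shPCBP2. In cells, miR-320-3p had 0.25, 0.16 and 0.044 with these scalings, and with TMM factors miR-484 had 0.072 and miR-1839-5p 0.036. The change of miR-1839-5p in EVs, 0.00, turned to -0.00012 with at least 10 counts, -0.00039 with DESeq2, -0.034 with limma voom and -0.018 with the replicate block. With 1 library left out at a time, the EV change of miR-484 ran from -1.55 to 0.33, of miR-877-5p from -0.33 to 0.37, of miR-1981-5p from -9.71 to 8.32 and of miR-1839-5p from -0.20 to 0.24. The ratio change of miR-484 ran from -1.15 to 0.73 and of miR-1981-5p from -8.90 to 9.12, and the cell change of miR-320-3p from -0.52 to 0.016.

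The counts over all miRNAs moved as follows. The 4 calls of the ratio change became 13 with TMM factors, 2 with median-of-ratios factors, 0 with at least 10 counts, 14 with DESeq2, 0 with limma voom and 0 to 11 with a library left out. The 119 calls of EVs against cells in shCTR became 76 with median-of-ratios factors, 75 with the total and 294 without a filter, and the 122 in shPCBP2 became 294 without a filter. The 13 calls in EVs became 7 without a filter, 7 with at least 10 counts, 1 with the 4 libraries, 27 with DESeq2, 4 with limma voom and 1 to 21 with a library left out. The 0 calls in cells became 5 with TMM factors, 1 with median-of-ratios factors, 3 with the total, 8 with at least 10 counts, 39 with the 4 libraries, 18 with DESeq2 and 16 with limma voom; 1 member, miR-1981-5p, was called with the 4 libraries. A replicate block left 1 call of the ratio change and 2 in EVs, and no member gained a call. The block used the replicate numbers of the sample titles. The sample descriptions number the shPCBP2 libraries differently, and not alike in cells and EVs. In the values, the title numbers did not line up as pairs across the groups. The correlation of replicate differences was -0.51 between the cell groups and -0.09 to 0.04 for the other 5 pairs of groups. In the cell groups the replicate differences thus tended to run opposite ways, and the source of this was not tested. With the block, miR-877-5p lost its call against cells in both shRNAs. A block with the numbers crossed within cells, added after seeing the data, gave 0 calls in cells and 0 members.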
